A study of Homo sapiens with 6 samples.

Results

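The genes described here are those of the human genome that carry the symbols of the classical DNA repair families, that is FANC, XRCC, RAD followed by a digit, RFC, MSH, MLH, ERCC and BRCA. All symbols of these forms among the named genes were taken, whatever their values, and they gave 31 of the 14884 genes measured. The families themselves were chosen with earlier results of these data known. Their levels were read in HK2 cells, an immortalised epithelial line of the human proximal tubule. The first group carried a pLKO.1 lentivirus with an shRNA against PGC-1alpha, and the second carried the same vector with an shRNA against GFP, which has no target in human cells. Puromycin removed untransduced cells from both groups, and the RNA dates from day 5 after transduction, 24 hours after puromycin was withdrawn. Each group held 3 Affymetrix arrays numbered as biological replicates, 6 arrays in all. The labels name 1 shRNA for each group and do not say if each culture had its own transduction. The p-values here therefore cover only the spread among these arrays, and an effect of 1 shRNA cannot be told apart from an effect of its target.

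Values are log2 RMA values, so a difference of 1 is a change of the signal by a factor of 2 and each gene is compared only with itself across arrays. The array medians over all 53617 probe sets, named or not, lay between 5.00 and 5.04. A level of 4.43, the 20th percentile of the named genes, served as a guide to dim signals. The target gene PPARGC1A was not analysed here, so the knockdown was not checked. Of the proximal tubule markers listed, 6 of 15 were measured and 1 of them (MIOX) was lower. MIOX kept its call with 1 array left out only for shGFP replicate 2, and lost it when the arrays were set to 1 median (adjusted p 0.0521). The endocytic receptor LRP2 read 3.92 to 4.09 in shPGC-1alpha cells and 3.83 to 4.04 in shGFP cells, below the guide. Its partner CUBN read 3.77 to 4.05 in shPGC-1alpha cells and 3.85 to 4.08 in shGFP cells, also below it, whereas the water channel AQP1 averaged 5.97 in shPGC-1alpha cells and 5.97 in shGFP cells. Among epithelial markers PAX8 averaged 11.82 in shPGC-1alpha cells and 11.44 in shGFP cells, and of the 7 measured this 1 rose and 3 fell (KRT19, EPCAM and KRT18). KRT19 averaged 7.90 in shPGC-1alpha cells and 9.32 in shGFP cells, a log2 difference of -1.42, and EPCAM and KRT18 were at -0.73 and -0.31. The median difference of the 7 was -0.31, and the part of these changes in the results below was not tested. Marker lists of other cells showed 0 calls of 3 measured genes for other nephron segments and 0 of 4 for endothelium, 1 higher (CD68) and 1 lower (CSF1R) of 4 for leukocytes, and 2 higher (LUM and DCN) of 3 for fibroblasts. The mean level of those 3 fibroblast genes was 6.57 to 6.63 on the shPGC-1alpha arrays and 6.01 to 6.17 on the shGFP arrays, and its part in the results below was not tested.

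Cells repair DNA by several routes that share some proteins. Homologous recombination mends breaks of both strands by copying a sister chromatid, end joining ligates the ends directly, mismatch repair corrects replication errors, and excision repair replaces damaged bases or stretches of a strand. A clamp related to PCNA and its loader signal damage to the checkpoint kinases, and many repair genes are known to be transcribed most in S phase, when the genome is copied. Proximal tubule cells are a well-known site of injury by DNA-damaging drugs such as cisplatin.

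The families were covered unevenly. Of 60 genes of these families that were listed by role, settled or not, 28 were named on the arrays and 32 were not analysed here, and 3 further symbols matched. The members were 9 genes of homologous recombination, 3 of end joining, 3 of mismatch repair, 4 of the checkpoint clamp and its loader, 2 of cohesin, and 1 each of single-strand break repair, nucleotide excision repair, post-replication repair and meiotic recombination. The remaining 6 matched by symbol and have another or an unsettled role in repair. They included FANCD2OS, which was the only FANC symbol, and ERCC6L2-AS1, which was the only ERCC symbol. There were 0 RFC and 0 BRCA symbols among the named genes.

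Transcripts of 8 of the 31 members fell with the shRNA against PGC-1alpha and 0 rose. They were the break-repair genes RAD50, RAD54B and RAD52, the Ku genes XRCC5 and XRCC6, the mismatch repair gene MSH6, the scaffold gene XRCC1 and the checkpoint clamp gene RAD9A. The changes were small, between 1.18-fold and 1.49-fold lower, with limma adjusted p (Benjamini-Hochberg over all 14884 genes, threshold 0.05) between 0.00112 and 0.0456. Over all genes 21.8% passed the threshold, 12.2% as lower and 9.58% as higher, against 25.8% of the members, all lower. Among the 28 protein-coding members 28.6% fell, and among all protein-coding genes 13.5% fell and 11.1% rose. The median log2 difference was -0.19 over the members and -0.02 over all genes. For 16 members the values of the groups did not overlap, with 15 lower in shPGC-1alpha cells and 1 higher, where 38.7% of all genes did not overlap and 21.5% did so with lower values in shPGC-1alpha cells. These are bulk samples, in which fewer cells with a transcript and less of it per cell cannot be told apart. With 3 arrays in each group an exact permutation test of a single gene cannot give a p below 0.1.

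The calls were not equally stable. RAD50, MSH6, XRCC5 and RAD54B passed under all 14 alternative settings tried and XRCC6 under 13, the exception being the fit over all probe sets. RAD52 kept its call with 1 array left out only for shPGC-1alpha replicate 1, XRCC1 only for shGFP replicate 1, and RAD9A for none of the 6. The count of members that fell was 5 without shGFP replicate 2, without shGFP replicate 3 or without shPGC-1alpha replicate 3. Over all genes 8.85%, 8.74% and 9.08% fell under these settings, in that order. When the arrays were set to 1 median over the named genes, 1867 genes were called higher and 1440 lower, from 1426 higher and 1817 lower. The median log2 difference over all genes moved from -0.02 to 0.04, and the difference of RAD50 from -0.58 to -0.52. Under this setting 5 members still fell, against 9.67% of all genes.

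**Figure D1:**
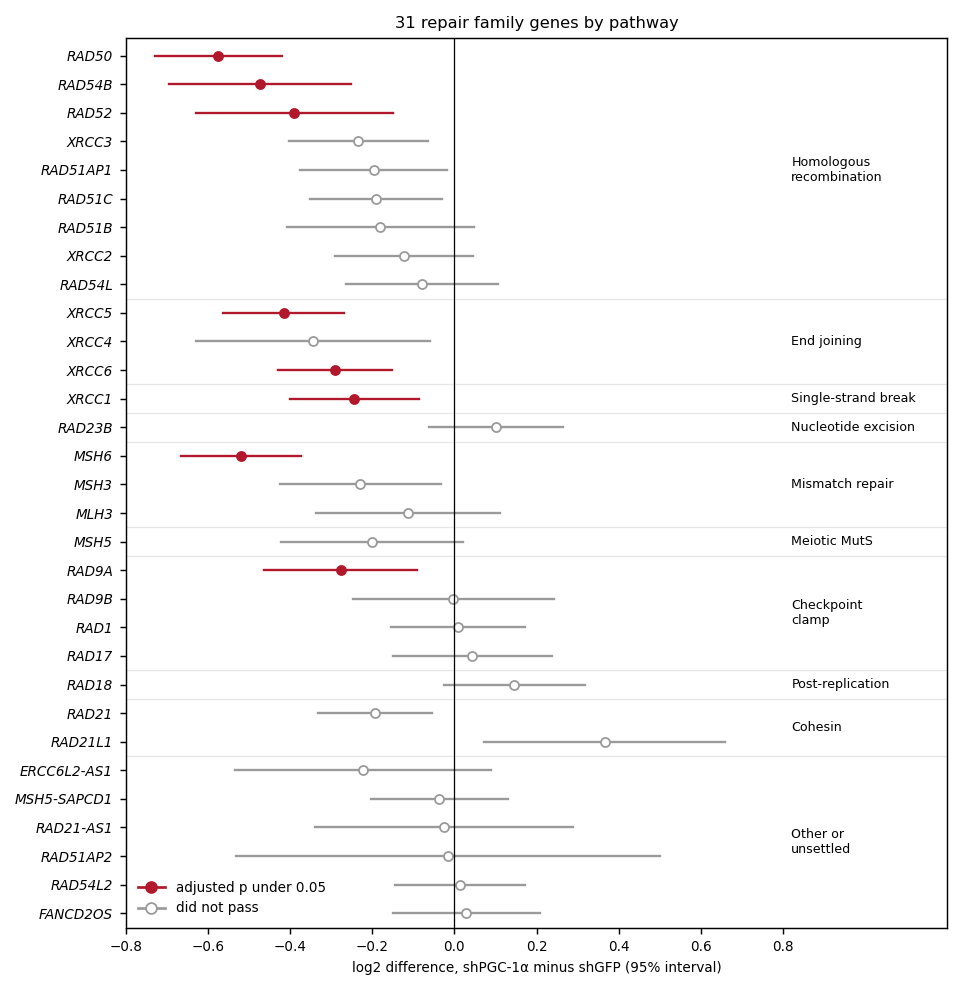
Log2 difference of each of the 31 members, shPGC-1alpha minus shGFP, with its 95% interval from limma (x axis), grouped by repair pathway (y axis). Filled red points are the 8 members that passed the threshold, all left of 0, and open grey points did not pass.

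The sequences before the starts of 4 members that fell, each from a different pathway, are shown as examples. They are the 250 bases upstream of the most upstream start in RefSeq (GRCh38.p14), 5′ to 3′ on the gene's strand, in lower case with motif matches in capitals. RAD50 lies at chr5:132556727-132556976 on the + strand, XRCC6 at chr22:41621045-41621294 on the + strand, MSH6 at chr2:47782895-47783144 on the + strand and XRCC1 at chr19:43575528-43575777 on the - strand.
RAD50: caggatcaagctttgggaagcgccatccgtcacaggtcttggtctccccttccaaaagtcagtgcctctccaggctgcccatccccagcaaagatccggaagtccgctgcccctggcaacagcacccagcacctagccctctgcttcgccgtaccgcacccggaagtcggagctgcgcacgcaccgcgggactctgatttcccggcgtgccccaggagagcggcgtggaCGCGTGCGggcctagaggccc
XRCC6: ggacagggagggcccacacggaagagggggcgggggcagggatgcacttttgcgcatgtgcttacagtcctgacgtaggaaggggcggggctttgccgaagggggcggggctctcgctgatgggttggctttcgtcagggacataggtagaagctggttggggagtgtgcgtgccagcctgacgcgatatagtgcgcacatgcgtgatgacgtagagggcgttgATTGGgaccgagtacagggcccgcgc
MSH6: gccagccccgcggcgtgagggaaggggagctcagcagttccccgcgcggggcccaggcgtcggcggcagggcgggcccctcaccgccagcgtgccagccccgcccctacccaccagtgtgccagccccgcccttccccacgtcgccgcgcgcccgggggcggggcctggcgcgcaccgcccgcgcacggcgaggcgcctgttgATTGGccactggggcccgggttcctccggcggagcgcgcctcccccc
XRCC1: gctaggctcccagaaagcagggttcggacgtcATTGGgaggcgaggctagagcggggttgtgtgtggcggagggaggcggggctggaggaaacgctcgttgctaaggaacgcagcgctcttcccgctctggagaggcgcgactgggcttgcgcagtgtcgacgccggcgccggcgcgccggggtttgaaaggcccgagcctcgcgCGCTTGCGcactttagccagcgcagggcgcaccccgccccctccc

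Letters of 4 factors were searched on both strands of these windows. They were TTTCCCGC and TTTGGCGC for E2F, which acts on S phase genes, CGCANGCG for NRF1 and AAGGTCA for the ERR receptors, which are known partners of PGC-1alpha, and CCAAT for NF-Y. Of the 26 members with an entry, 1 window held the E2F letters (3.85%), against 1.96% of the windows of all 27305 genes with one. That member was MSH3, and 0 of the 6 members that fell and had an entry held these letters. The NRF1 letters were in 9 of the 26 (34.6%), against 9.15% of all windows. Of the 6 members that fell and had an entry 2 held them, RAD50 21 bases and XRCC1 45 bases before the start. The other holders did not pass the threshold. MLH3, MSH5, RAD51AP1 and XRCC2 had differences below 0, and RAD17, RAD18 and RAD23B had differences above 0. The ERR letters were in 0 of the 26, against 3.50% of all windows. CCAAT was in 12 of the 26 (46.2%), against 33.0% of all windows. Of the 6 members that fell and had an entry 4 held it. They were RAD9A, XRCC6 26 bases, MSH6 47 bases and XRCC1 218 bases before the start. Distances are counted to the first base of the match, and no matches overlapped in the printed windows. A match describes letters and is not a measured site, and all windows include those of noncoding genes.

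The counts by pathway and list below stand beside 12.2% lower and 9.58% higher over all genes, and 13.5% and 11.1% over protein-coding genes. The sets are small, and their counts were not tested against these shares. Homologous recombination was the largest set, with 3 of 9 members lower, 0 higher and a median log2 difference of -0.20. RAD50, the coiled-coil ATPase of the complex that first binds and trims broken ends, had the largest decrease of all 31 members. It read 8.52, 8.44 and 8.45 in shPGC-1alpha cells and 9.11, 9.03 and 8.99 in shGFP cells. All 3 shPGC-1alpha arrays lay below all 3 shGFP arrays, and the means were 8.47 ± 0.04 in shPGC-1alpha cells and 9.05 ± 0.06 in shGFP cells (SD, n = 3 each). The log2 difference was -0.58 (SE 0.07), which is 1.49-fold lower, with a limma adjusted p of 0.00112.

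RAD50 works with MRE11, a nuclease, and NBN, which recruits the kinase ATM, and both partners were lower as well. MRE11 averaged 7.54 in shPGC-1alpha cells and 8.04 in shGFP cells, a log2 difference of -0.50 (adjusted p 0.0017). NBN averaged 9.59 in shPGC-1alpha cells and 9.96 in shGFP cells, a difference of -0.37 (adjusted p 0.0154), and its call was lost without shGFP replicate 2 or 3. Thus the 3 measured subunits of this complex each passed in the same direction. The partner genes were named from the role of RAD50 and were not members.

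RAD54B and RAD52 were the other recombination genes that fell. RAD54B, a DNA translocase, read 7.78, 7.83 and 7.70 in shPGC-1alpha cells and 8.40, 8.26 and 8.07 in shGFP cells. The groups did not overlap, although the shGFP arrays spread more (SD 0.16) than the shPGC-1alpha arrays (SD 0.07), and the difference was -0.47 (SE 0.09, adjusted p 0.0112). RAD52, which anneals single strands, read 5.92, 5.87 and 5.58 in shPGC-1alpha cells and 6.27, 6.12 and 6.16 in shGFP cells. Its value on shPGC-1alpha replicate 3 was the lowest of the 6, and the difference was -0.39 (SE 0.10, adjusted p 0.0334). RefSeq lists a pseudogene of RAD52, so probes may be shared and the value is uncertain. RAD54L, the closest relative of RAD54B, averaged 7.75 in shPGC-1alpha cells and 7.83 in shGFP cells, with overlapping arrays and a 95% interval of the difference from -0.26 to 0.11.

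The genes XRCC3, RAD51C, RAD51B and XRCC2, whose proteins act in complexes with one another during recombination, had differences below 0 that did not pass. XRCC3 read 6.52, 6.39 and 6.49 in shPGC-1alpha cells and 6.76, 6.73 and 6.61 in shGFP cells, with a difference of -0.23 (SE 0.07, adjusted p 0.0575). Its partner RAD51C averaged 7.39 in shPGC-1alpha cells and 7.58 in shGFP cells, at -0.19 (adjusted p 0.0942). RAD51B and XRCC2 were at -0.18 and -0.12, with 95% intervals from -0.41 to 0.05 and from -0.29 to 0.04. The arrays of XRCC3, RAD51C and RAD51B did not overlap between the groups, and those of XRCC2 did. RAD51AP1, which binds DNA during recombination, was at -0.20 (adjusted p 0.117), again without overlap.

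Among 16 other recombination genes measured, 3 fell and 1 rose, with a median of 0.01, where 12.2% of all genes fell and 9.58% rose. Besides MRE11 and NBN, the helicase and nuclease DNA2 fell by 0.57 on the log2 scale (adjusted p 0.00078). FIGNL1, an ATPase that acts in recombination, went the other way and rose by 0.71 (adjusted p 0.0020), with arrays at 8.95, 8.85 and 8.76 in shPGC-1alpha cells and 8.20, 8.25 and 7.98 in shGFP cells. Of 10 other genes of the Fanconi anemia pathway, which unhooks crosslinked strands, 2 fell and 0 rose. They were PALB2, which brings BRCA2 to damage, at -0.56 (adjusted p 0.0018), and the helicase gene BRIP1, at -0.51 (adjusted p 0.0055). FANCD2OS itself, a gene named for its place opposite FANCD2, was at 0.03 and close to the dim guide, with means of 4.53 in shPGC-1alpha cells and 4.50 in shGFP cells.

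**Figure D2:**
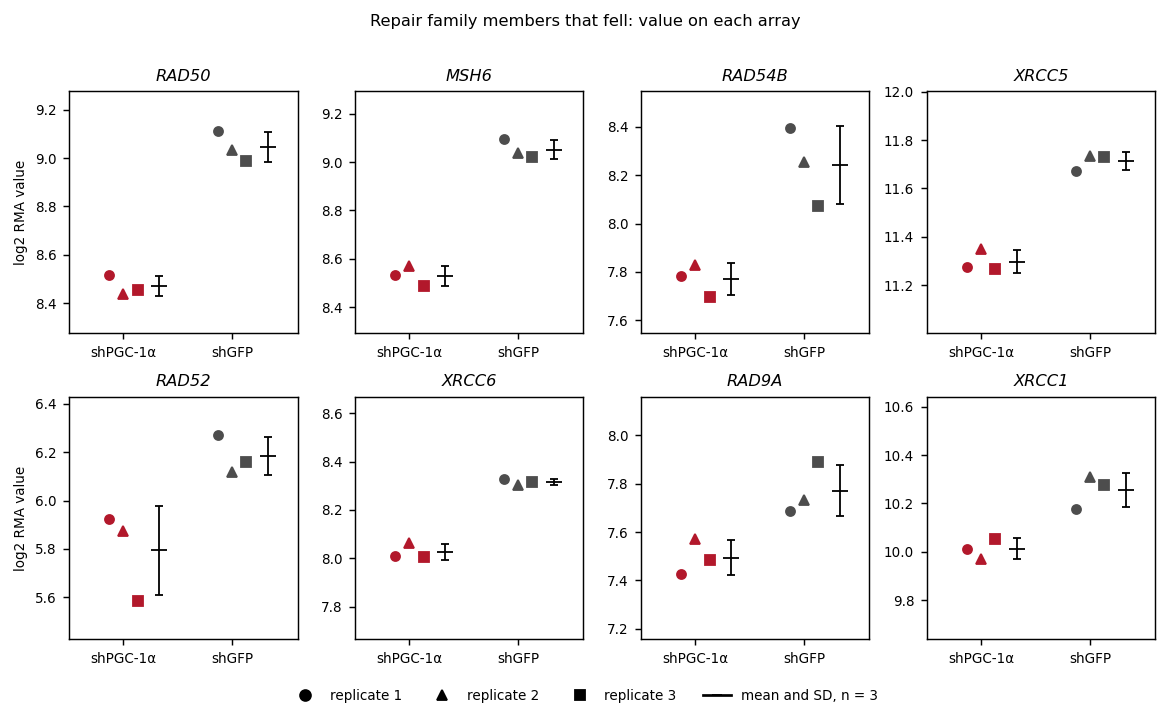
Log2 RMA value on each array (y axis, 1 log2 unit in every panel) for the 8 members that fell, with shPGC-1alpha in red on the left and shGFP in grey on the right of each panel. Symbols mark the replicate number and the bar beside them is the mean with its SD (n = 3); no shPGC-1alpha array reaches the lowest shGFP array in any panel.

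In end joining 2 of 3 members fell and 0 rose. XRCC5 and XRCC6 encode Ku80 and Ku70, the ring that threads onto a broken end. XRCC5 read 11.27, 11.35 and 11.27 in shPGC-1alpha cells and 11.67, 11.73 and 11.73 in shGFP cells, a difference of -0.42 (SE 0.06, adjusted p 0.0035). XRCC6 read 8.01, 8.06 and 8.00 in shPGC-1alpha cells and 8.33, 8.30 and 8.31 in shGFP cells, a difference of -0.29 (SE 0.06, adjusted p 0.0123). Both subunits of the ring were thus lower on every shPGC-1alpha array than on any shGFP array, by 1.33-fold for XRCC5 and 1.22-fold for XRCC6. XRCC6 has several pseudogenes in RefSeq whose transcripts could share its probes, and its value is uncertain to that extent.

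XRCC4, the scaffold of the final ligase, had a larger difference than XRCC6 but did not pass. It read 6.72, 6.92 and 6.43 in shPGC-1alpha cells and 7.09, 7.01 and 7.02 in shGFP cells. The groups did not overlap, but the shPGC-1alpha arrays spread by an SD of 0.25 against 0.05 in shGFP cells, and the difference was -0.34 (SE 0.12, adjusted p 0.0894). It passed without shPGC-1alpha replicate 2, with an adjusted p of 0.0307. Of 3 other end joining genes 0 passed, and the end-trimming nuclease DCLRE1C, at -0.34, had an adjusted p of 0.0717. Without shPGC-1alpha replicate 1 the count of those 3 that fell was 1.

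MSH6 had the second largest decrease of the members. Its protein recognises mismatched bases, and it read 8.53, 8.57 and 8.49 in shPGC-1alpha cells and 9.10, 9.04 and 9.02 in shGFP cells. The gap between the groups was wider than the range within either of them, and the difference was -0.52 (SE 0.06), or 1.43-fold lower, with an adjusted p of 0.00134. MSH3, which acts on larger loops, was at -0.23 (SE 0.08, adjusted p 0.0974), with arrays at 8.30, 8.31 and 8.19 in shPGC-1alpha cells and 8.35, 8.58 and 8.55 in shGFP cells. MSH3 passed without shGFP replicate 1, the lowest of its group, with an adjusted p of 0.0405. The MutL gene MLH3 had overlapping arrays and a 95% interval from -0.34 to 0.11.

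Of 3 other mismatch repair genes measured 2 fell and 0 rose. PMS2, the endonuclease subunit of the main MutL complex, was at -0.61 (adjusted p 0.0015), and its near-identical pseudogenes make the value uncertain. PCNA, the sliding clamp that also serves replication, was at -0.33 (adjusted p 0.0188). PCNA kept its call with 1 array left out only for shGFP replicate 1 and for shPGC-1alpha replicate 2. MSH5, a MutS relative known from meiosis, averaged 7.43 in shPGC-1alpha cells and 7.63 in shGFP cells, with overlapping arrays and an adjusted p of 0.191.

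XRCC1 is the scaffold that gathers the enzymes of single-strand break repair, which also completes base excision repair. It read 10.01, 9.97 and 10.05 in shPGC-1alpha cells and 10.18, 10.31 and 10.28 in shGFP cells. The groups did not overlap, and the difference was -0.24 (SE 0.07, adjusted p 0.0390), the smallest among the members that passed. In the list of 18 other base excision genes 7 fell and 1 rose, with a median of -0.19. The uracil glycosylase UNG and the oxidised-base glycosylase NEIL1 were at -0.58 (adjusted p 0.00081) and -0.65 (adjusted p 0.0010), and PARP1 and PARP2, which detect strand breaks and attract XRCC1, were at -0.37 (adjusted p 0.0065) and -0.40 (adjusted p 0.0069). The gene that rose was TDP1, which removes trapped topoisomerase from ends, at 0.34 (adjusted p 0.0099), and without shPGC-1alpha replicate 3 the count that rose was 2.

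Of nucleotide excision repair only RAD23B was measured as a member. It stabilises the damage sensor XPC, and read 10.42, 10.38 and 10.29 in shPGC-1alpha cells and 10.33, 10.25 and 10.22 in shGFP cells, with overlap and a difference of 0.10 (SE 0.07, adjusted p 0.369). Among 4 other genes of this route 2 fell and 0 rose. They were CDK7, the kinase of the repair and transcription factor TFIIH, at -0.51 (adjusted p 0.0017), and XAB2, which binds XPA and also serves splicing, at -0.53 (adjusted p 0.0018).

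In the checkpoint clamp, 1 of 4 genes of the clamp and its loader fell. RAD9A, the clamp subunit that recruits the activator of the kinase ATR, read 7.43, 7.57 and 7.48 in shPGC-1alpha cells and 7.69, 7.73 and 7.89 in shGFP cells, a difference of -0.28 (SE 0.08, adjusted p 0.0456). This call was the closest to the threshold, and with any 1 array left out its adjusted p was 0.0545 to 0.134. The clamp subunit RAD1 was at 0.01, with a 95% interval from -0.16 to 0.17, and the loader subunit RAD17 at 0.04, with an interval from -0.15 to 0.24. HUS1, the remaining clamp subunit and no member, was at -0.16 (adjusted p 0.171). RAD9B, a relative of RAD9A, was at 0.00, with means of 5.53 in shPGC-1alpha cells and 5.54 in shGFP cells.

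Of 13 other checkpoint genes 2 fell and 2 rose, where 12.2% of all genes fell and 9.58% rose. The fork proteins CLSPN and TIMELESS were at -0.45 (adjusted p 0.0076) and -0.39 (adjusted p 0.0078), and the mitotic brake kinase WEE1 and the damage mediator MDC1 were at 0.37 (adjusted p 0.0057) and 0.27 (adjusted p 0.0359). MDC1 kept its call with 1 array left out only for shGFP replicate 1. The 1 gene measured of the alternative clamp loaders, DSCC1, was at -0.18 (adjusted p 0.137).

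RAD18, the ubiquitin ligase that marks PCNA at stalled forks, was among the 7 members with a difference above 0. It read 8.53, 8.55 and 8.38 in shPGC-1alpha cells and 8.40, 8.31 and 8.31 in shGFP cells, with slight overlap and a difference of 0.15 (SE 0.07, adjusted p 0.216). Of 7 other genes of post-replication repair 2 fell and 0 rose. They were the translesion polymerase POLI, at -0.62 (adjusted p 0.0094), and PRIMPOL, which restarts synthesis beyond a lesion, at -0.61 (adjusted p 0.0057).

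The cohesin genes had differences of opposite sign, and neither passed. RAD21, the closing subunit of the cohesin ring, read 7.32, 7.31 and 7.28 in shPGC-1alpha cells and 7.48, 7.49 and 7.53 in shGFP cells, with tight groups that did not overlap. Its difference of -0.19 (SE 0.06) had an adjusted p of 0.0553. RAD21L1, its meiotic relative, was the only member higher on every shPGC-1alpha array, at 4.62, 4.41 and 4.88 in shPGC-1alpha cells and 4.38, 4.17 and 4.26 in shGFP cells. The shGFP mean lay below the dim guide of 4.43, and the difference of 0.37 (SE 0.13) had an adjusted p of 0.0806, or 0.0328 without shPGC-1alpha replicate 2. Of 11 other cohesin genes 1 fell and 0 rose, where 12.2% of all genes fell. The gene was SMC1A, at -0.21 (adjusted p 0.0481). Its call was lost without any 1 of the 6 arrays and when the arrays were set to 1 median.

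The other 6 symbols gave 0 calls, with differences from -0.22 to 0.03. RAD54L2, a chromatin remodeler that binds the androgen receptor, was at 0.01 with a 95% interval from -0.14 to 0.17. RAD51AP2 lay far below the dim guide, with means of 2.21 in shPGC-1alpha cells and 2.23 in shGFP cells, and an interval from -0.53 to 0.50. The noncoding ERCC6L2-AS1, RAD21-AS1 and MSH5-SAPCD1 were at -0.22, -0.02 and -0.04. Antisense and readthrough transcripts can share sequence with their neighbours, so these values are uncertain.

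Genes of DNA replication and mitosis were measured beside the repair genes. Of 21 S phase genes 15 fell and 0 rose, with a median log2 difference of -0.39, and the count was 11 to 13 with 1 array left out. The mean level of this list was 8.60 to 8.68 on the shPGC-1alpha arrays and 9.06 to 9.07 on the shGFP arrays. The smallest p-values were those of the helicase genes MCM6, MCM5 and GINS2, at -0.92, -0.81 and -0.78, and of the cyclin gene CCNE1, at -0.92. Of 21 mitotic genes 4 rose and 0 fell, with a median of 0.13, and the mean level was 9.54 to 9.64 on the shPGC-1alpha arrays and 9.48 to 9.53 on the shGFP arrays. The mitotic genes that rose were BIRC5, at 0.40, CDCA8, at 0.46, KIF23, at 0.25, and TTK, at 0.27. BIRC5 and CDCA8 kept their calls whichever array was left out, TTK only for shPGC-1alpha replicate 3, and KIF23 for none of the 6. The count was 2 whenever an array other than shPGC-1alpha replicate 3 was left out. Without that replicate it was 4, with NDC80 called and KIF23 not. The part of S phase transcripts in the lower repair transcripts was not tested.

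Over the 10 lists of other repair genes together, those of checkpoint and cohesin genes included, 86 of 140 were measured. Of these 21 (24.4%) fell and 4 (4.65%) rose, with a median of -0.15. Over all genes 12.2% were lower and 9.58% higher, and over protein-coding genes 13.5% and 11.1%. With 1 array left out 16 to 21 fell and 3 to 4 rose. Some of these genes, such as PCNA and FEN1, also serve replication.

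**Figure D3:**
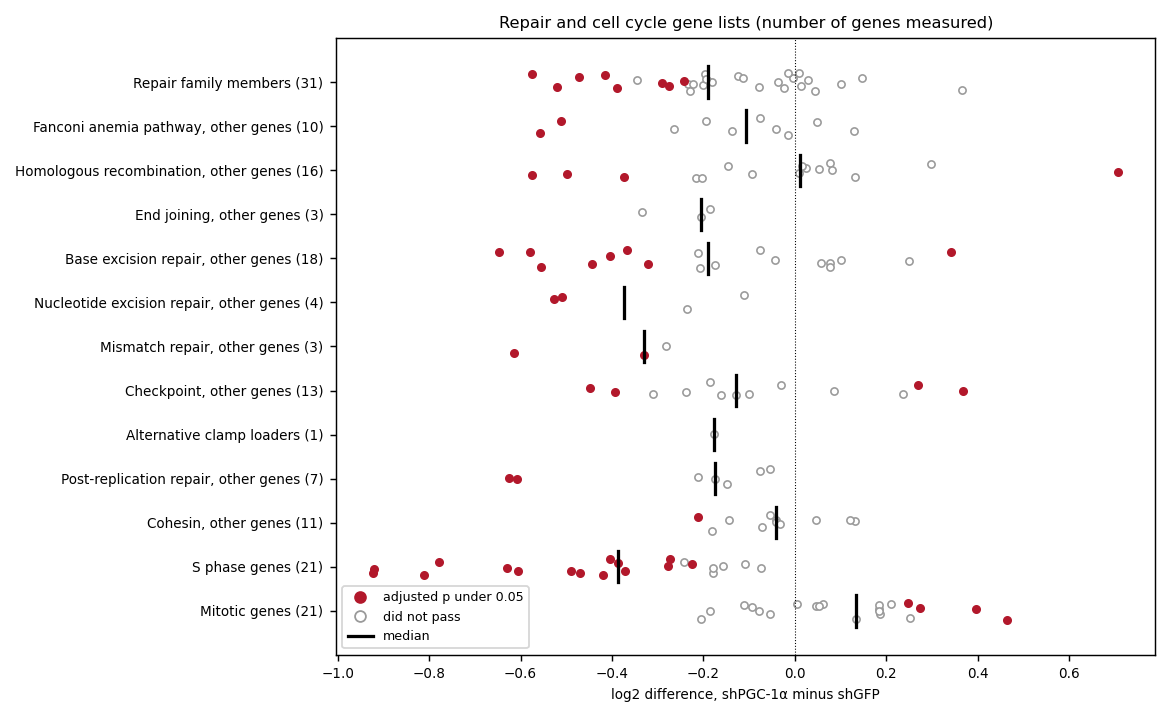
Log2 difference of each measured gene, shPGC-1alpha minus shGFP (x axis), in the repair family members, the lists of other repair genes and the S phase and mitotic lists (y axis, number measured in brackets). Filled red points passed the threshold, open grey points did not, and the black bar is the median, which is -0.19 for the members, -0.39 for S phase genes and 0.13 for mitotic genes.

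**Figure D4:**
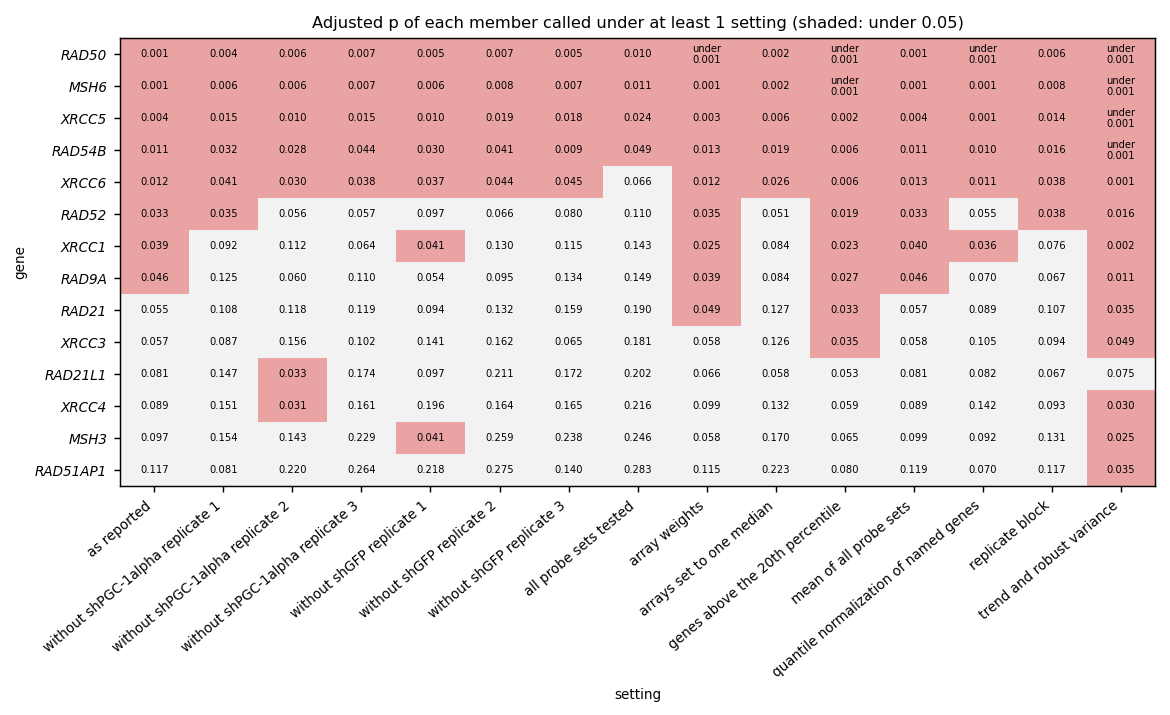
Limma adjusted p of the members that passed under at least 1 setting (rows) in the reported fit and in each of 14 alternatives (columns), shaded where it was under 0.05. RAD50, MSH6, XRCC5 and RAD54B are shaded in every column, and RAD52, XRCC1 and RAD9A in only some.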

How the data were processed

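The authors deposited log2 expression values for 53617 probe sets on 6 arrays. Per the submitters' processing notes they were made with RMA (background correction, quantile normalisation between arrays, probe summarisation) and Affymetrix Expression Console, with no version named in the labels. Quantile normalisation reduces a change shared by most transcripts. Values ran from 0.662 to 13.8 and were used as deposited, and scan batches were not analysed here.

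The platform table named 16098 probe sets, which gave 14884 genes, and 37519 were unnamed here. For 779 genes with several probe sets, that with the highest mean stood for the gene. Differences, shPGC-1alpha minus shGFP, were tested with lmFit and eBayes of limma 3.58.1 (R 4.3.3), two-sided, without a filter or a block. The procedure was tested on simulated data, drawn independently for each gene and array. Such data cannot show how it behaves if arrays share a transduction or a batch. The number of arrays limits the precision, with a median SE of 0.0876 over all genes.

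The members, pathway lists, markers and motifs were chosen with earlier results of these data known. All members are accounted for, with values for those past the threshold and for others by their role. Of each other list, up to 4 genes past the threshold with the smallest p are named, or 1 where none passed; HUS1, TDP1, the cell type markers and FEN1 were chosen after their values were seen. Sequences are from RefSeq, and 26 of the 31 members had one. Alternatives left out each array, used the replicate number as a block, dropped dim genes, averaged probe sets, rescaled arrays, changed the variance model, weighted arrays or tested all probe sets.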

Additional observations from a re-analysis of the deposited data

How the results depend on the processing

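The reported fit called 8 members, 8 lower and 0 higher. Leaving out 1 array gave 5 to 7 calls, with 5 to 7 lower and 0 to 1 higher, the higher one being RAD21L1 without shPGC-1alpha replicate 2. Over all genes 8.74% to 10.1% fell with 1 array left out. The count of calls, all lower, was 5 with arrays set to 1 median, 13 with a trend and robust variance and 4 when all probe sets were tested. Over all genes 9.67%, 14.8% and 6.52% fell under these settings, in that order. That last setting adjusts over more features and also refits the variance (the SE of XRCC6 was 0.0706, against 0.0592 in the reported fit), and it called 1737 of the 14884 genes, against 3243. Which of these changes moved the calls was not tested, nor was the cause for the others. The count was 6 after quantile normalisation of the named genes, 8 with probe sets averaged and 9 with array weights. Among genes above the 20th percentile it was 10, of 30 members tested. Over all genes tested 11.5%, 11.9%, 12.6% and 17.3% fell under these settings, in that order. With the replicate number as a block 6 members were called, all lower, where 10.4% of all genes fell, and XRCC1 and RAD9A lost their calls. Same-numbered arrays deviated together with r of 0.117, 0.0874 and 0.023 over genes. Pairs of unlike number had r from -0.123 to 0.0573, the highest being shPGC-1alpha replicate 2 with shGFP replicate 3. With 3 arrays in each group these values cannot settle if same-numbered arrays share a batch or a pairing. Over the single members, 27 values lost a call, 11 gained one and 0 called values changed sign. RMA values carry no counts or detection calls, so depth could not be examined.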

Other observations

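The gene MSH5-SAPCD1, a readthrough of MSH5 and its neighbour, had 5 probe sets, of which 4 held identical values on all 6 arrays, so they count as 1 measurement. The probe sets of MSH5 differed, at -0.20 and -0.14 (log2 difference of the group means, shPGC-1alpha minus shGFP), and those of ERCC6L2-AS1 were at -0.22 and -0.42.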
